A study of Mus musculus with 6 samples.

Results

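Glycolysis splits glucose into pyruvate in the cytosol. Hexokinases trap the sugar taken up by GLUT transporters, phosphofructokinase commits it to the pathway, and lactate dehydrogenase turns pyruvate into lactate or back. Pyruvate dehydrogenase kinases slow the use of pyruvate inside mitochondria. When oxygen is low, prolyl hydroxylases no longer mark HIF-1α for destruction, and the HIF factors raise many of these genes together with Vegfa, Bnip3 and Car9. In developing cerebellum, dividing granule neuron progenitors are known for a strongly glycolytic metabolism with high Hk2, which declines as the cells become neurons, while mature neurons rely on Hk1, Slc2a3 and Eno2.

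Here, 32 genes of glycolysis and the hypoxia response were followed in mouse cerebellar granule neurons (CGNs) in which EZH2, the methyltransferase that deposits H3K27me3, was inhibited. The genes were chosen by symbol, from general knowledge of the pathway, out of 55341 genes in the count tables. Earlier results of these data were known when they were chosen. All 32 had a row in each table and passed the filter on low counts, which kept 16729 genes. They comprise 2 glucose transporters, 3 genes of the hexokinase and glucose phosphate isomerase steps, 3 phosphofructokinase subunits, 3 PFKFB enzymes, 8 genes from aldolase to pyruvate kinase, 2 lactate dehydrogenase subunits, 4 pyruvate dehydrogenase kinases and 7 genes of the hypoxia response.

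The RNA came from 3 cultures given DMSO, the solvent, and 3 given GSK-126, a small molecule inhibitor of EZH2, with replicates numbered 1 to 3 in both groups. The labels name cerebellum and DIV3, whereas the study's methods describe CGN cultures treated once at DIV3 and collected at DIV5, with CGNs of pooled litters as a biological replicate. The dose used for this experiment was not given in the sources used here. All cultures shared the same origin, CD1-IGS pups at P6 to P8, a Percoll gradient for progenitors and, at DIV2, cytosine arabinoside against dividing non-neuronal cells. The labels give no genetic change in either group.

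Libraries held 7407189 to 13092763 counts on genes. Replicate 2 of both groups stood apart from the other libraries on the leading principal component, which held 46.4% of the variance, so values without it are given where they end a call of the treatment test. Granule neuron markers were abundant, but the cultures were not of neurons alone. The fibroblast markers Col1a1, Col1a2, Dcn and Lum summed to 4705 to 6449 CPM (counts scaled to a common library size) with DMSO, and 7 astroglial markers to 2334 to 7204 CPM. Atoh1, which defines granule neuron progenitors, was at or near 0 in every library. Of the other progenitor markers, Gli1 reached at most 1.12 CPM and Gli2 ran from 5.97 to 16.7 CPM. Mki67, Top2a and Ccnd1, of the same list, stood at 74.4 to 136, 78.2 to 125 and 121 to 229 CPM.

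Expression is given as CPM scaled by TMM factors. Changes are GSK-126 over DMSO from edgeR's quasi-likelihood test with the replicate number as a block, with standard errors (SE), n = 3 pairs. Adjusted p-values are Benjamini-Hochberg values over the 16729 genes tested, and a gene was called at an adjusted p under 0.05. The labels tie libraries to numbered replicates, but no source states that a number marks a shared litter pool.

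With EZH2 inhibited, 5 of the 32 glycolytic and hypoxia response genes were called and 27 were not. Not being called does not mean that a gene lay within the spread between pairs. Pfkl and Ldha rose, while Slc2a3, Eno2 and Pdk2 fell, each by 32.7% or less. These 2 higher calls are 6.25% of the genes, beside 3.35% of all genes tested, and the 3 lower calls are 9.38%, beside 5.09%. In either direction the share called was 15.6%, against 8.44% of all genes tested. The genes and the block were chosen with earlier results known, so these shares are descriptive. The median log2 fold change of the 32 genes was 0.048 and that of all genes tested was -0.0056. The split of 2 higher and 3 lower became 4 higher and 1 lower when libraries were scaled by upper quartiles or by total counts, so the balance of directions depends on the scaling. Without replicate 2, Eno2 was the single gene called. Without the block, edgeR called 0 of the 32 at adjusted p-values of 0.953 or more, 0 had an unadjusted p under 0.05 and DESeq2 called 0, whereas with the block 11 had an unadjusted p under 0.05.

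**Figure D1:**
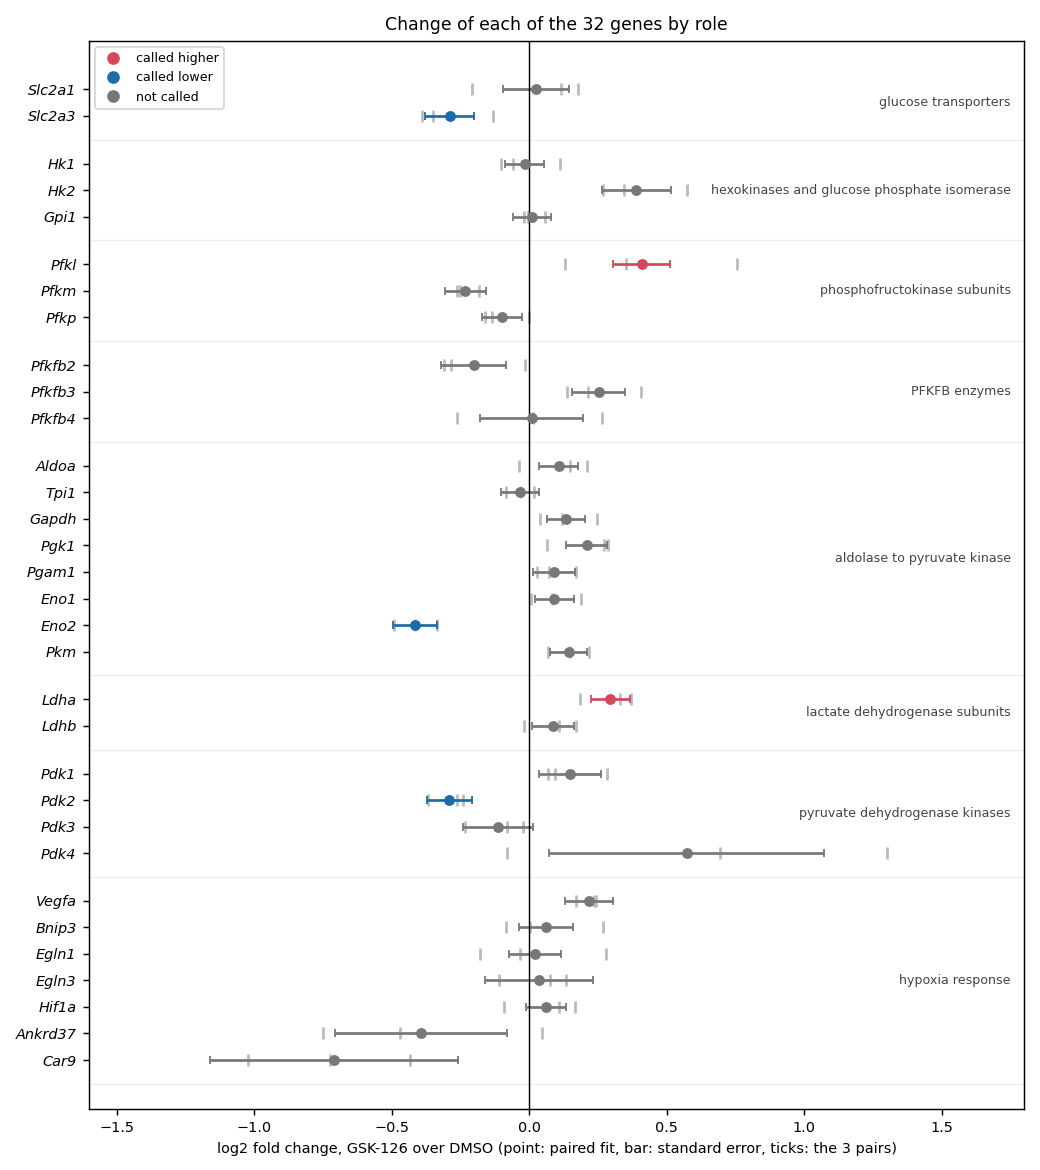
Change of each of the 32 genes with GSK-126, arranged by role. The horizontal axis is the log2 fold change of GSK-126 over DMSO, points are the paired fit, bars its SE, and grey ticks the 3 pairs. Pfkl and Ldha lie to the right among the called genes, Slc2a3, Eno2 and Pdk2 to the left, and the long bars of Pdk4, Ankrd37 and Car9 belong to genes with few counts.

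The transporters differed in their values. Slc2a3 (chromosome 6, 122727809 to 122801640, GRCm38) encodes GLUT3, the high-affinity glucose transporter of neurons. It stood at 79.0, 107 and 75.4 CPM in DMSO replicates 1, 2 and 3 and at 72.1, 81.6 and 59.2 CPM with GSK-126. GSK-126 libraries were lower in all 3 pairs, yet the groups overlapped, because replicate 2 was the highest in both. Slc2a3 fell by 18.2% (log2 fold change -0.29 ± 0.088 SE, edgeR adjusted p = 0.0471), close to the threshold. It was called in 1 of 11 alternatives, and its adjusted p was 0.130 by DESeq2 with the block, 0.0801 by edgeR with total counts and 0.228 by edgeR without replicate 2, where the log2 fold change was -0.24. Slc2a1 encodes GLUT1, the transporter of glia and blood vessels. It measured 38.1, 32.4 and 29.4 CPM with DMSO and 33.0, 36.6 and 31.8 CPM with GSK-126. Its pairs went in different directions, the difference was 0.03 ± 0.12 SE on the log2 scale (edgeR adjusted p = 0.930), and its sign changed without replicate 2 or 3.

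At the first step, both hexokinases were present. Hk1, the isoenzyme of the adult brain, read 278, 332 and 289 CPM with DMSO and 266, 358 and 269 CPM with GSK-126, a log2 difference of -0.02 ± 0.072 SE (edgeR adjusted p = 0.921) whose sign turned under upper-quartile and total-count scaling. Hk2, the inducible isoenzyme that binds mitochondria and marks proliferating progenitors, was scarcer. It had 26.0, 17.7 and 33.8 CPM with DMSO and 33.0, 26.4 and 40.7 CPM with GSK-126. Hk2 was above its DMSO partner in every pair, by 0.35, 0.57 and 0.27 on the log2 scale, while the groups overlapped and replicate 2 had the lowest level in both. The log2 fold change was 0.39 ± 0.12 SE with an edgeR adjusted p of 0.0582, so Hk2 was not called, although it was called under 4 of 11 alternatives. Gpi1, the isomerase of the next step, lay between 348 and 405 CPM in the 6 libraries, with a log2 difference of 0.01.

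The log2 ratio of Hk2 to Hk1 was free of library scaling. It averaged -3.58 ± 0.58 (SD, n = 3) with DMSO and -3.17 ± 0.54 (SD, n = 3) with GSK-126. Within pairs the difference was 0.41, 0.46 and 0.37, a mean of 0.41 ± 0.047 (SD, n = 3 pairs). The exact two-sided permutation test over libraries gave p = 0.4, where 3 against 3 libraries cannot go below 0.1. This test does not use the pairs.

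Phosphofructokinase is a tetramer of subunits from 3 genes, and its subunits did not move together. Pfkl (chromosome 10, 77986947 to 78010083), the liver-type subunit, had 72.4, 51.5 and 77.4 CPM with DMSO and 79.2, 86.9 and 98.8 CPM with GSK-126. All GSK-126 libraries were above all DMSO libraries. It rose by 32.7% (log2 fold change 0.41 ± 0.10 SE, edgeR adjusted p = 0.0158). The pairs gave 0.13, 0.76 and 0.35, so the widest gap was in replicate 2, and without that pair the log2 fold change was 0.24 (edgeR adjusted p = 0.184). Pfkm, the muscle-type subunit, was at 160.1, 201 and 158 CPM with DMSO and 134, 167 and 139 CPM with GSK-126. It was lower in 3 of 3 pairs but was not called (log2 fold change -0.23 ± 0.074 SE, edgeR adjusted p = 0.0580). Pfkp, the platelet-type subunit common in brain, measured 217, 279 and 236 CPM with DMSO and 194, 279 and 215 CPM with GSK-126 (log2 fold change -0.10 ± 0.072 SE, edgeR adjusted p = 0.471), with replicate 2 highest in both groups.

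The PFKFB enzymes set the level of fructose 2,6-bisphosphate, the activator of phosphofructokinase, and 0 of 3 were called. Pfkfb3, the member with the strongest kinase activity, had 51.4, 41.7 and 68.7 CPM with DMSO and 68.1, 48.4 and 75.6 CPM with GSK-126. The GSK-126 library was the higher of each pair while the groups overlapped, and the log2 fold change of 0.25 ± 0.096 SE was not called (edgeR adjusted p = 0.122). Pfkfb2 differed by -0.20 and Pfkfb4 by 0.01 on the log2 scale.

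Between aldolase and pyruvate kinase lie the most abundant transcripts of the pathway, and 1 of 8, Eno2, was called. Eno2 (chromosome 6, 124760053 to 124769673) encodes the γ subunit of enolase, known as neuron-specific enolase. It had 116, 184 and 106 CPM in DMSO replicates 1, 2 and 3 and 91.9, 131 and 79.7 CPM with GSK-126. It was lower with GSK-126 in all 3 pairs, by 0.34, 0.49 and 0.41 on the log2 scale, although replicate 2 with GSK-126 remained above DMSO replicates 1 and 3. Eno2 fell by 25.0% (log2 fold change -0.42 ± 0.079 SE, edgeR adjusted p = 0.00174). It was called in 9 of 11 alternatives, the exceptions being both fits without the block.

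Eno1, the α-enolase found in all cell types, ran from 454 to 554 CPM with DMSO and from 481 to 555 CPM with GSK-126, a log2 difference of 0.09. Gapdh, which oxidises glyceraldehyde 3-phosphate and often serves as a reference transcript, had 625, 664 and 806 CPM with DMSO and 740.4, 721 and 827 CPM with GSK-126. It was higher in 3 of 3 pairs without being called (log2 fold change 0.13 ± 0.069 SE, edgeR adjusted p = 0.274). Pkm, the pyruvate kinase gene, had 525, 463 and 585 CPM with DMSO and 550.4, 538 and 648 CPM with GSK-126 (log2 fold change 0.14 ± 0.068 SE, edgeR adjusted p = 0.231), and its PKM1 and PKM2 isoforms are not separated in counts per gene. Pgk1, the first step that yields ATP, showed no overlap between groups, at 223 to 263 CPM with DMSO and 265 to 321 CPM with GSK-126, and was not called (log2 fold change 0.21, edgeR adjusted p = 0.0918). Aldoa, Tpi1 and Pgam1 differed by 0.11, -0.03 and 0.09 on the log2 scale, and the sign of Tpi1 turned under upper-quartile and total-count scaling. Of the 32 genes, 8 share over 10% of their sequence with other genes, here Pfkfb2, Bnip3, Ankrd37 and Pkm (12.3%) besides the following. Reads of Pgk1, Pgam1, Eno1 and Gapdh are uncertain, because 51.7%, 33.9%, 20.4% and 20.9% of the stretches of 100 bases in their exons also occur in other annotated genes, for Pgk1 and Pgam1 chiefly Pgk1-rs7 and Pgam1-ps2. Eno2, Pfkl and Pdk2 share none, and Ldha 0.590%.

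Ldha (chromosome 7, 46841475 to 46855627), the subunit favouring the conversion of pyruvate to lactate, had 416, 313 and 406 CPM with DMSO and 472, 404 and 510.2 CPM with GSK-126. It was higher in every pair, by 0.18, 0.37 and 0.33 on the log2 scale, and the groups overlapped because DMSO replicates 1 and 3 exceeded GSK-126 replicate 2. Ldha rose by 22.6% (log2 fold change 0.29 ± 0.070 SE, edgeR adjusted p = 0.0107). The adjusted p was 0.0544 without replicate 2 and 0.0613 without replicate 3. Ldhb, the subunit prevalent in neurons and heart, had 173, 129 and 159 CPM with DMSO and 186, 145 and 157 CPM with GSK-126 (log2 fold change 0.09 ± 0.076 SE, edgeR adjusted p = 0.563).

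The log2 ratio of Ldha to Ldhb averaged 1.30 ± 0.045 (SD, n = 3) with DMSO and 1.51 ± 0.18 (SD, n = 3) with GSK-126. It was higher with GSK-126 by 0.076, 0.20 and 0.35 in the 3 pairs. The exact two-sided permutation test over libraries gave p = 0.2, again with 0.1 as the smallest p possible and without use of the pairs. Benjamini-Hochberg adjustment over the 3 exact permutation tests made here, on the hexokinase ratio, the lactate dehydrogenase ratio and the summed level of the 32 genes, gave 0.4 for each.

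**Figure D2:**
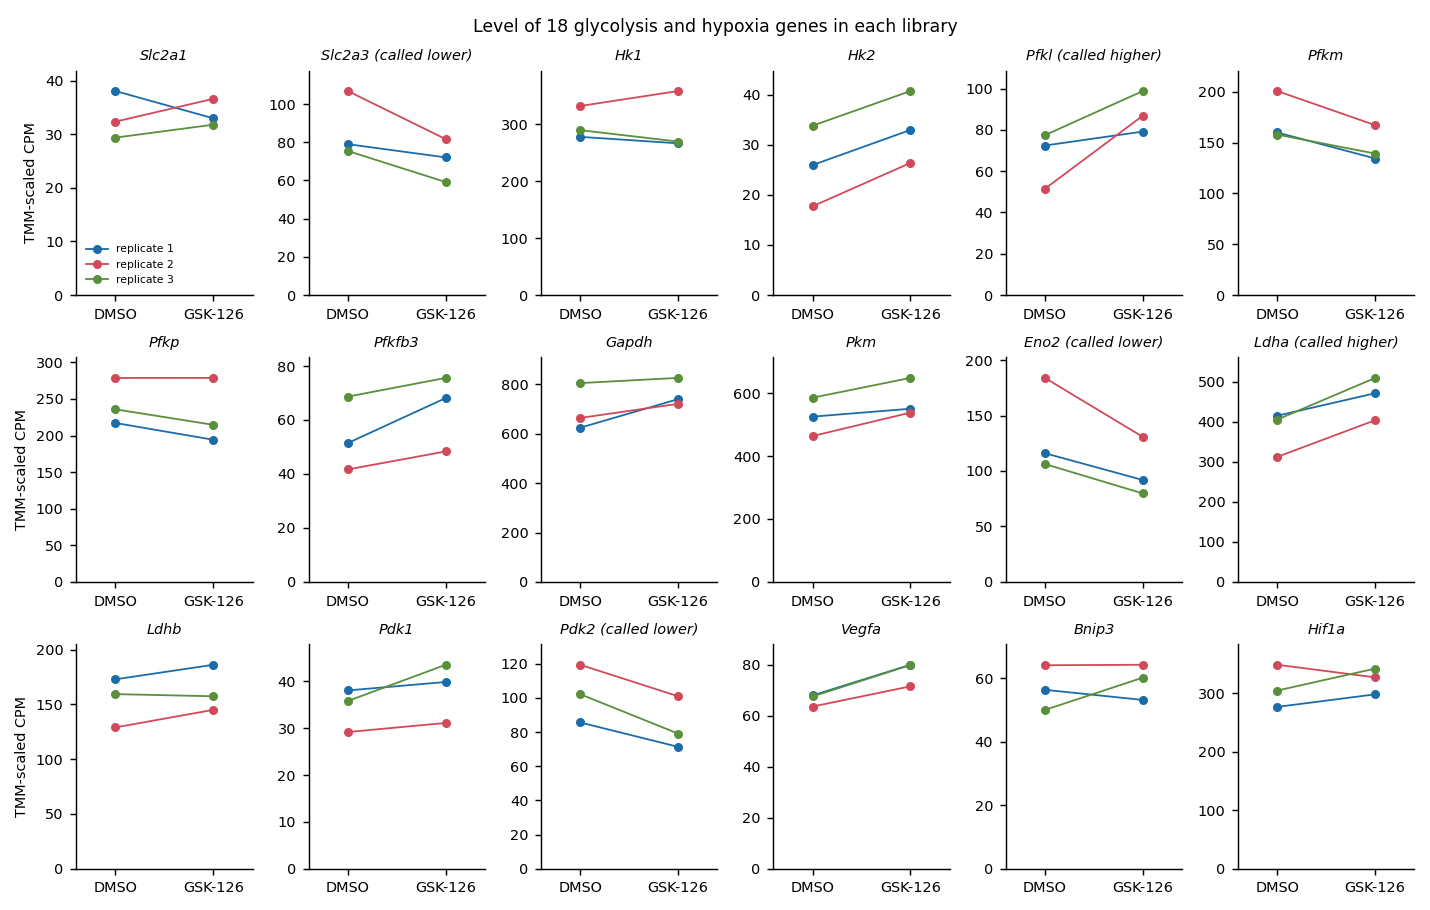
Level of 18 genes in each library. The vertical axis of each panel is TMM-scaled CPM from 0, each line joins the DMSO and the GSK-126 library of one replicate number, and called genes are marked in the panel titles. Lines of Eno2 and Slc2a3 slope down and those of Ldha and Pfkl slope up in all 3 pairs, while the replicate 2 line of Eno2 lies above both others and that of Ldha below.

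Pyruvate dehydrogenase kinases phosphorylate the pyruvate dehydrogenase complex and thereby inactivate it. Pdk2 (chromosome 11, 95026258 to 95041354), the most widely expressed kinase, had 85.6, 119 and 102 CPM with DMSO and 71.3, 101 and 79.1 CPM with GSK-126. It was lower in each pair, with overlapping groups and with replicate 2 highest in both. Pdk2 fell by 18.2% (log2 fold change -0.29 ± 0.082 SE, edgeR adjusted p = 0.0309), and it was called in 3 of 11 alternatives, with an edgeR adjusted p of 0.0605 without replicate 2. Pdk1, the kinase that HIF induces, had 38.1, 29.2 and 35.8 CPM with DMSO and 39.9, 31.1 and 43.5 CPM with GSK-126 (log2 fold change 0.15 ± 0.11 SE, edgeR adjusted p = 0.495). Pdk3 differed by -0.11 on the log2 scale. Pdk4, the kinase induced by fasting, was rare at 0.466 to 2.27 CPM, where the SE of 0.50 leaves little precision.

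Ratios of further paralogous pairs, chosen after their values were seen and therefore given without a test, moved with the called genes. The ratio of Eno2 to Eno1 in CPM was 0.244, 0.405 and 0.192 in DMSO replicates 1, 2 and 3 and 0.170, 0.272 and 0.144 with GSK-126. The ratio of Pfkm to Pfkl was 2.21, 3.90 and 2.04 with DMSO and 1.70, 1.92 and 1.41 with GSK-126, without overlap between the groups. The ratio of Pdk2 to Pdk1 went from 2.25, 4.09 and 2.85 to 1.79, 3.24 and 1.82. That of Slc2a3 to Slc2a1 was 2.08, 3.30 and 2.57 with DMSO and 2.19, 2.23 and 1.86 with GSK-126, and it was not lower in replicate 1. Because exon lengths differ, the size of such a ratio is no molar proportion, and comparisons are between libraries.

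**Figure D3:**
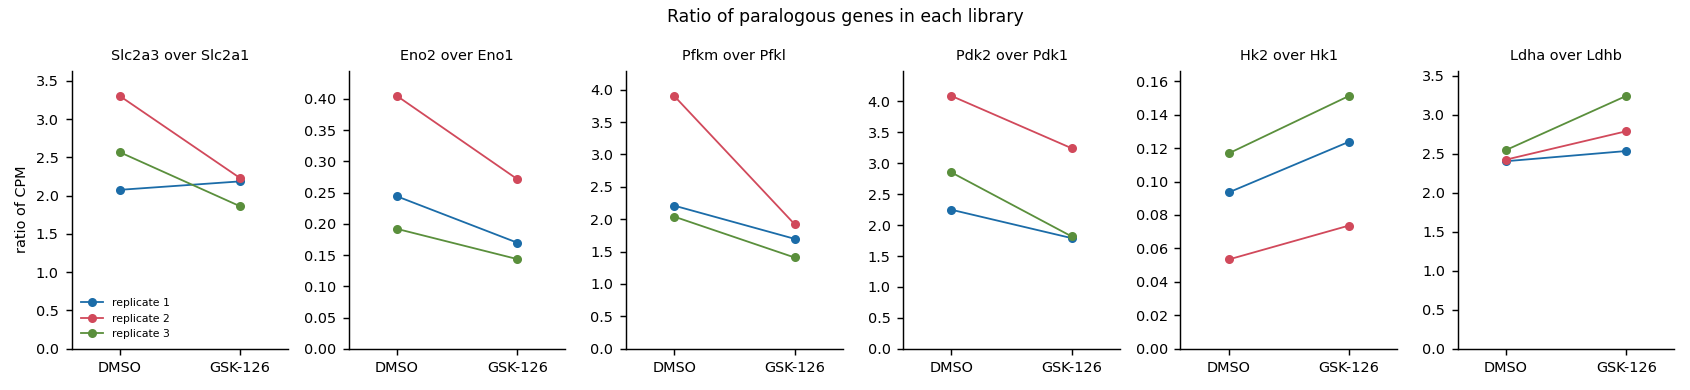
Ratio of paralogous genes in each library. Each panel plots the ratio of TMM-scaled CPM on an axis from 0, with lines joining the libraries of one replicate number. Eno2 over Eno1, Pfkm over Pfkl and Pdk2 over Pdk1 are lower with GSK-126 in all 3 pairs, Hk2 over Hk1 and Ldha over Ldhb are higher in all 3, and Slc2a3 over Slc2a1 is mixed.

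None of the 7 hypoxia response genes was called by edgeR, and 1 of them, Vegfa, had an unadjusted p under 0.05. Vegfa, the angiogenic growth factor, measured 67.9, 63.6 and 67.5 CPM with DMSO and 80.0, 71.5 and 79.9 CPM with GSK-126. Its groups did not overlap, and the log2 fold change of 0.22 ± 0.087 SE was not past the threshold (edgeR adjusted p = 0.149). Bnip3, a mitophagy receptor induced by HIF, had 56.4, 64.1 and 50.1 CPM with DMSO and 53.2, 64.3 and 60.2 CPM with GSK-126 (log2 fold change 0.06 ± 0.099 SE, edgeR adjusted p = 0.789). Bnip3 counts are uncertain, since 24.6% of its 100-base stretches occur in other genes and 504 bases overlap Gm45507 on the opposite strand, while the strand setting of the counting was not given in the sources used here. Exons of Gpi1, Pfkp, Ankrd37 and Hif1a overlap exons on the opposite strand over 741, 748, 406 and 330 bases, and their counts carry the same limit. On the same strand, exons of Pfkfb2, Pkm, Pfkm and Hif1a overlap those of other genes over 1262, 767, 341 and 148 bases. No strand setting separates reads there. Hif1a, the oxygen-regulated subunit whose control lies mainly in protein stability, had 276, 348 and 304 CPM with DMSO and 298, 327 and 342 CPM with GSK-126 (log2 fold change 0.06 ± 0.073 SE, edgeR adjusted p = 0.694). The prolyl hydroxylases Egln1 and Egln3 differed by 0.02 and 0.04 on the log2 scale. Car9, the carbonic anhydrase that is a sensitive marker of hypoxia, was rare at 1.85, 1.96 and 2.35 CPM with DMSO and 0.910, 1.18 and 1.74 CPM with GSK-126. Its groups did not overlap, but the log2 fold change of -0.71 ± 0.45 SE was not called (edgeR adjusted p = 0.391). Ankrd37 was also rare, at 2.88 to 4.84 CPM. Over all 32 genes, groups without overlap were seen for Pfkl, Pgk1 and Vegfa, higher with GSK-126, and for Car9, lower, beside 9.44% of all genes tested.

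Promoter sequences of 4 of the 5 called genes (Slc2a3 has no entry in the promoter table used here), with Bnip3 as a HIF target that was not called, are shown to place these genes beside the letters that HIF recognises. They are the 250 bases before the annotated start in RefSeq on GRCm38.p6, read 5′ to 3′ on the strand of the gene. Capitals mark ACGTG or GCGTG, the core of the hypoxia response element, read on either strand (as CACGT or CACGC on the printed one), and the 6 letters CACGTG hold overlapping matches on both strands. The first listed start is shown for Ldha and Pdk2, which each have 2.
Pfkl, chr10:78009808-78010057, minus strand: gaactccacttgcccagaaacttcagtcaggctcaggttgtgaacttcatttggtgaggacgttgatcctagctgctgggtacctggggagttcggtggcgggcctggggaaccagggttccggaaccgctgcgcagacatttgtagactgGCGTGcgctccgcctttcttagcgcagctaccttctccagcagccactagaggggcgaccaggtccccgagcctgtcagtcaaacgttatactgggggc
Ldha, chr7:46845554-46845803, plus strand: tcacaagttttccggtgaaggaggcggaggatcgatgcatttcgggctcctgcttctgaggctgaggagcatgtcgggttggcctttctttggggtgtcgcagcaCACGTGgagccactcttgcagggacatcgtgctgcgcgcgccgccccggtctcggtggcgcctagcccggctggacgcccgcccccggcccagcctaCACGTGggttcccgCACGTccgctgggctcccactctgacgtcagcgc
Eno2, chr6:124769674-124769923, minus strand: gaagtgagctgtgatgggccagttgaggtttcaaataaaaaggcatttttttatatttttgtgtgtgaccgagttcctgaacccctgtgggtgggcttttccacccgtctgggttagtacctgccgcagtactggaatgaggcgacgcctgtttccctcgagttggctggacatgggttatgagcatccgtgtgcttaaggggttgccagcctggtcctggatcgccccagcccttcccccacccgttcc
Pdk2, chr11:95041372-95041621, minus strand: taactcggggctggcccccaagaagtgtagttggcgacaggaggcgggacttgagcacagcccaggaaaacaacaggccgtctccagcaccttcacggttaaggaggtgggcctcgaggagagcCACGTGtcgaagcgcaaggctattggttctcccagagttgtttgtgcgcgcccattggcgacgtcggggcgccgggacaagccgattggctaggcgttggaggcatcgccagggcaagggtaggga
Bnip3, chr7:138909507-138909756, minus strand: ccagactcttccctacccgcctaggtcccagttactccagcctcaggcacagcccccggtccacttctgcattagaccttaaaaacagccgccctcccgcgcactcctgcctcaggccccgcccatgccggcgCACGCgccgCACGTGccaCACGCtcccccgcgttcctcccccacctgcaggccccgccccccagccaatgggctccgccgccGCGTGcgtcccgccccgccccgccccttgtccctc

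Pfkl held 1 match in this window, Ldha 5, Pdk2 2, Bnip3 5 and Eno2 0. Of the 32 genes, 31 had a promoter in the RefSeq table and 28 of these (90.3%) held either motif upstream of at least 1 start, compared with 59.6% of the tested genes that had a promoter and 41.5% of all genes in the table. The ACGTG form alone was in 61.3% of the 31, in 24.4% of tested genes and in 18.5% of all genes. All 7 hypoxia response genes carried it. A gene with several starts has more windows for a match. Counted per promoter, either motif was in 78.7% of the 47 promoters of these genes and in 38.6% of all 32851 promoters. Known HIF targets were among the genes chosen, so these shares are descriptive. The match counts take each CACGTG once on each strand. Ldha rose with 5 matches and Pfkl with 1, Pdk2 fell with 2 and Eno2 with 0, and Bnip3 with 5 was not called. A link between matches and changes was not tested. A match is a run of letters and not a measured binding site.

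Per kilobase of exon, the order of levels with DMSO followed the pathway's bulk enzymes. Gapdh had 169 ± 23.0 CPM per kb (SD, n = 3) and Aldoa 160 ± 23.0, which differ by less than their spread. Ldha (114 ± 17.2), Tpi1 (114 ± 3.29), Pgk1 (110 ± 9.20), Pkm (105 ± 12.2), Ldhb (97.9 ± 14.3) and Eno1 (91.9 ± 9.73) followed as neighbours that overlap within their spread. Pgam1 (61.4 ± 2.89), Gpi1 (57.5 ± 2.86), Hif1a (52.5 ± 6.15) and Pfkm (51.8 ± 7.24) formed the next group, ahead of Hk1 (35.1 ± 3.34), Pdk2 (32.4 ± 5.33) and Eno2 (28.8 ± 8.99). Pfkp (18.2 ± 2.36), Vegfa (15.5 ± 0.561), Slc2a3 (12.02 ± 2.37), Pfkl (10.1 ± 2.06), Slc2a1 (9.49 ± 1.26), Pfkfb3 (7.13 ± 1.81), Pdk1 (4.42 ± 0.594) and Hk2 (4.33 ± 1.35) were lower, the other 8 lay between 0.890 (Car9) and 25.1 (Bnip3), and Pdk4 was lowest at 0.346 ± 0.265. Lengths are the union of all annotated exons, which lowers the value of genes with long alternative exons.

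Summed over the 32 genes, the level was 5543, 5629 and 6081 CPM with DMSO and 5834, 5943 and 6314 CPM with GSK-126, which was 0.535% to 0.638% of counts on genes. It was higher with GSK-126 by 291, 314 and 233 CPM in the 3 pairs, a mean of 279 ± 41.6 (SD, n = 3 pairs), with overlapping groups. The exact two-sided permutation test gave p = 0.3, with 0.1 as the smallest p possible and without use of the pairs. Gapdh, Aldoa, Pkm and Eno1 made up 38.1% to 43.3% of these counts, and without them the mean difference was 86.9 CPM in place of 279 CPM.

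Part of the spread was shared by libraries of the same number. An edgeR test of the replicate number called 13 of the 32 genes (40.6%), beside 31.4% of all genes tested, and 4 of the 5 treatment calls (Slc2a3, Eno2, Ldha and Pdk2) were among these. Replicate 2 was the highest in both groups for Slc2a3, Hk1, Pfkm, Pfkp, Eno2 and Pdk2, and the lowest in both for Hk2, Pfkfb3, Pkm, Ldha and Ldhb. Eno2 had the smallest adjusted p for replicate number (8.5e-06, edgeR), with 184 and 131 CPM in replicate 2 against 79.7 to 116 CPM elsewhere. None of the hypoxia response genes was called between replicate numbers. When replicate 2 was left out, 2 of the 32 genes (6.25%) were called between the numbers that were left, beside 9.72% of all genes tested.

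**Figure D4:**
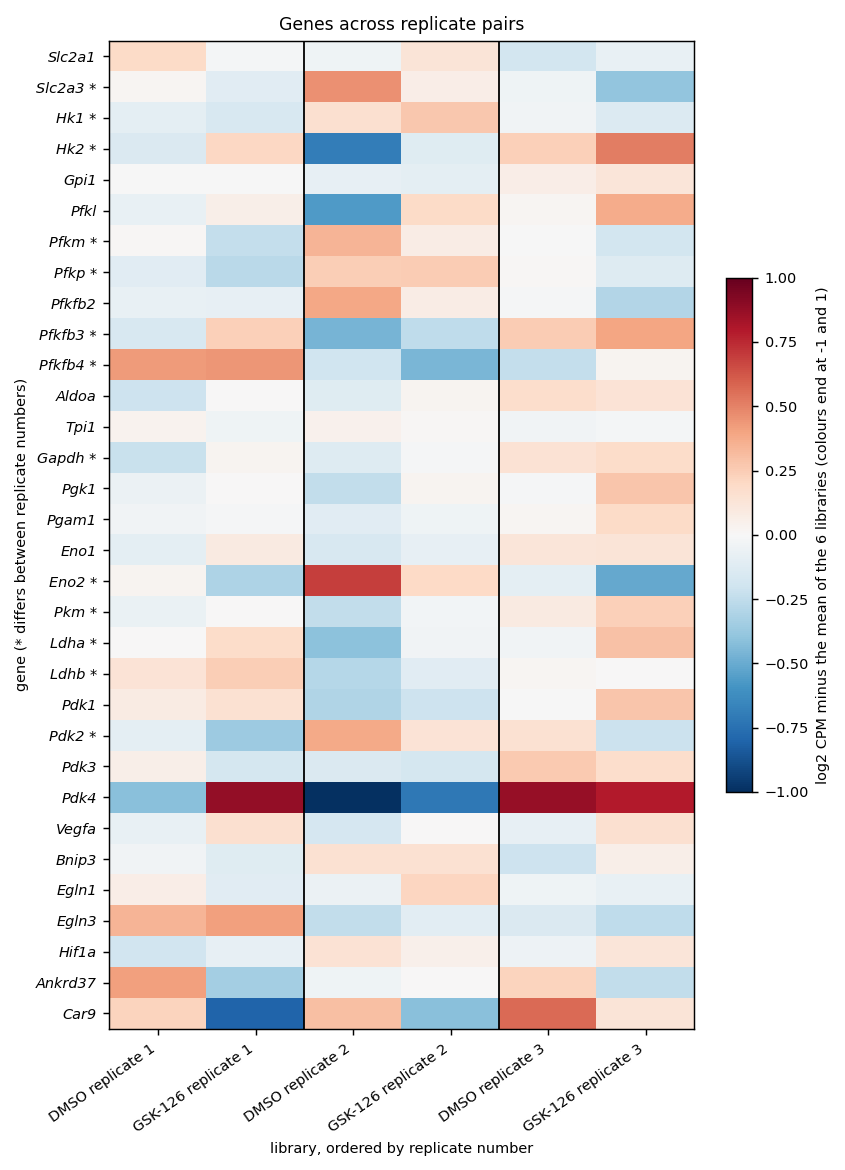
Deviation of the 32 genes across libraries ordered by replicate number. Colours give the log2 CPM minus the mean over the 6 libraries, ending at -1 and 1, and an asterisk marks the 13 genes that differed between replicate numbers. Red cells of Slc2a3, Pfkm and Eno2 and blue cells of Hk2, Pfkfb3 and Ldha stand in the columns of DMSO replicate 2.

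Cell type markers also differed between treatments and between replicate numbers. In bulk RNA, fewer cells of a type and less RNA per cell cannot be told apart. The summed level of 9 granule neuron markers was 3840, 6343 and 4334 CPM in DMSO replicates 1, 2 and 3 and 2972, 4814 and 3202 CPM with GSK-126, thus highest in replicate 2 and lower with GSK-126 in every pair, and 7 of the 9 genes fell by edgeR. The 7 astroglial markers summed to 7204, 2334 and 4020 CPM with DMSO and 7562, 2215 and 3969 CPM with GSK-126, lowest in replicate 2, with 1 of 7 called higher. The fibroblast sum was 4705, 5419 and 6449 CPM with DMSO and 5933, 5740 and 7013 CPM with GSK-126, with 1 of 4 called higher. Microglial markers ranged from 149 to 320.4 CPM with DMSO and from 205 to 373 CPM with GSK-126, oligodendrocyte lineage markers from 427 to 737 CPM and from 491 to 752 CPM, and endothelial and pericyte markers from 142 to 219 CPM and from 189 to 272 CPM, each with 1 gene called higher. Cldn5, which defines endothelium, was at 0 counts in some libraries. Purkinje cell and interneuron markers summed to 136 to 163 CPM with DMSO and 120.2 to 136 CPM with GSK-126. Gad1 and Gad2, 2 of these 5, were called lower. The log2 fold change was below 0 for 3 of the 5, but 0.45 for Calb1 and 0.51 for Pvalb, which were not called. Without replicate 1, edgeR called 0 of the 5, and without replicate 3 it called 0 lower and 1 higher. Progenitor markers summed to 295 to 398 CPM with DMSO and 290.5 to 442 CPM with GSK-126, with 0 of the 4 tested called by edgeR and 1 with an unadjusted p under 0.05. Without replicate 2, in a count added after the data were seen, 7 of the 9 granule neuron markers were called lower, 1 astroglial, 1 microglial, 1 endothelial or pericyte and 1 progenitor marker were called higher, 1 Purkinje cell or interneuron marker was called lower, and the fibroblast and oligodendrocyte lineage calls were lost. The part of these shifts in the changes of Slc2a3, Eno2, Pdk2, Ldha and Pfkl was not tested.

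**Figure D5:**
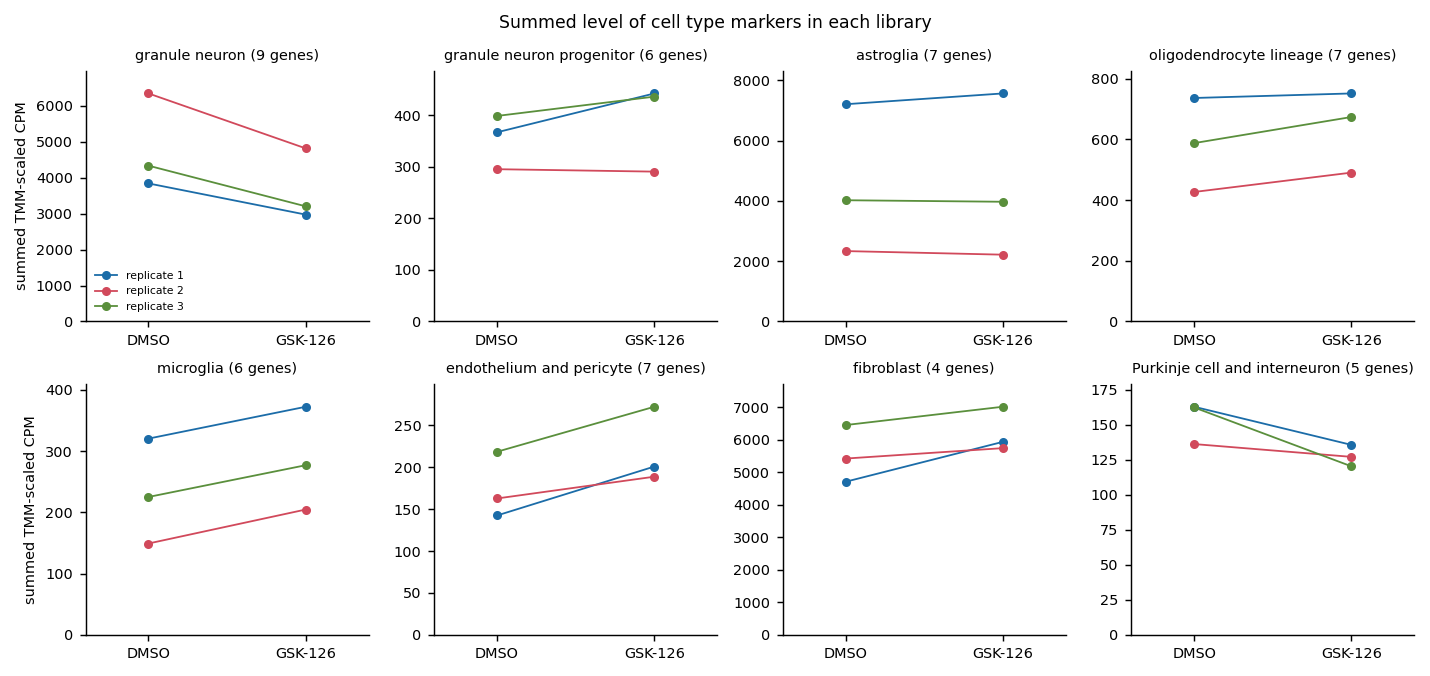
Summed level of cell type markers in each library. The vertical axis of each panel is summed TMM-scaled CPM from 0, and each line joins the libraries of one replicate number. Granule neuron markers are lower with GSK-126 in all 3 pairs and highest in replicate 2, and astroglial markers are lowest in replicate 2.

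Further genes of these pathways were read from lists that hold none of the 32. The lists, too, were drawn up with earlier results of these data known. Of 28 other glycolysis genes, 26 were tested and 3 rose (11.5%, beside 3.35% of all genes tested), with a median log2 fold change of -0.04. As 0 were called lower, the share in either direction was also 11.5%, against 8.44% of all genes tested. Hk3, a hexokinase of myeloid cells, was at 18.9, 12.5 and 45.5 CPM with DMSO and at 30.5, 22.1 and 65.2 CPM with GSK-126 (log2 fold change 0.66 ± 0.12 SE, edgeR adjusted p = 0.00144). Slc16a3 encodes MCT4, the lactate exporter of glia, and had 12.7, 14.3 and 17.7 CPM with DMSO and 17.4, 23.0 and 27.8 CPM with GSK-126 (log2 fold change 0.60 ± 0.15 SE, edgeR adjusted p = 0.0119), a call that was lost without replicate 2 (edgeR adjusted p = 0.0733) or replicate 3 (0.0610). Pdp2, the phosphatase that opposes the pyruvate dehydrogenase kinases, had 11.7, 17.0 and 16.4 CPM with DMSO and 19.5, 28.0 and 27.0 CPM with GSK-126, without overlap (log2 fold change 0.73 ± 0.14 SE, edgeR adjusted p = 0.00223).

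Of 31 other genes of the HIF pathway and its known targets, 30 were tested. Of these, 7 rose (23.3%, beside 3.35%) and 0 were called lower by edgeR, against 8.44% of all genes tested in either direction. The median log2 fold change was 0.14. The 4 with the smallest p were Lox, Adm, Ndrg1 and Hmox1. Lox, the collagen cross-linking enzyme of fibroblasts, had 489, 728 and 697 CPM with DMSO and 798, 886 and 1002 CPM with GSK-126, without overlap (log2 fold change 0.50 ± 0.077 SE, edgeR adjusted p = 0.000232). Adm, the vasodilator peptide adrenomedullin, had 31.4, 27.4 and 39.7 CPM with DMSO and 57.0, 54.8 and 53.7 CPM with GSK-126, also without overlap (log2 fold change 0.76 ± 0.12 SE, edgeR adjusted p = 0.000265). Ndrg1, a stress-responsive gene of glia, had 63.8, 19.0 and 80.7 CPM with DMSO and 97.4, 34.0 and 106 CPM with GSK-126 (log2 fold change 0.59 ± 0.10 SE, edgeR adjusted p = 0.000651). Hmox1, which degrades haem, had 128, 51.8 and 177 CPM with DMSO and 166, 98.9 and 211 CPM with GSK-126 (log2 fold change 0.50 ± 0.10 SE, edgeR adjusted p = 0.00271). Replicate 2 was lowest in both groups for Ndrg1 and Hmox1, as it was for the astroglial, microglial, oligodendrocyte lineage and progenitor sums. Without replicate 2, 7 genes of this list were called, but not the same 7, since Stc2 lost its call (edgeR adjusted p = 0.0903). Without the block 0 were called by edgeR, with 4 at an unadjusted p under 0.05, and 0 by DESeq2.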

How the data were processed

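Poly-A RNA of 3 DMSO and 3 GSK-126 cultures was sequenced in pairs of reads. Per the labels and the study's methods, the authors trimmed with Trimmomatic 0.38, aligned to GRCm38.p4 with STAR 2.7.2b and used HTSeq on exon features, and the deposited values are raw counts for each gene, not normalized. The strand setting and Gencode release were not given in the sources used here, and the symbols are identical to GENCODE M21, which supplied positions. Lines that name no gene held 58.7% to 60.7% of listed reads and were left out.

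Counts were tested in R 4.3.3 with edgeR 4.0.16 (TMM, filterByExpr, quasi-likelihood, Benjamini-Hochberg over all genes tested), with the replicate number as a block. The study used DESeq2 and does not state a block. Same-numbered libraries deviated together from the group means (correlations across genes of 0.56, 0.63 and 0.49, and 0.0064 or less for other pairs), and the biological coefficient of variation was 9.74% with the block and 24.0% without. Whether the spread covers separate litters or technical variation is not stated per library. SE is the log2 fold change divided by the square root of F. DESeq2 1.42.0, other scalings, other filters and fits without each pair served as alternatives. Ratios and sums were tested in SciPy 1.17.1 by exact permutation.

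The 32 genes, the lists and the block were chosen with earlier results of these data known. Genes given in full are those called, the 6 smallest p and 14 anchor genes. Of each further list, at most 4 genes past the threshold with the smallest p are named by this rule, and the closing section names 3 more hypoxia genes chosen after their values were seen.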

Additional observations from a re-analysis of the deposited data

How the results depend on the processing

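The calls rest on the replicate block. Without the block, edgeR and DESeq2 both gave 0 genes called higher and 0 called lower among the 32, and 0 among the other glycolysis, other hypoxia, pentose phosphate and tricarboxylic acid cycle genes. Over all genes tested, edgeR without the block called 0, with 665 at an unadjusted p under 0.05 and a smallest adjusted p of 0.386, and DESeq2 without the block called 21. With the replicate block, edgeR called 1412 and DESeq2 987, and DESeq2 called 1 of the 32 genes lower and 1 tricarboxylic acid cycle gene. Upper-quartile factors and total counts gave 4 genes called higher and 1 called lower, and no filter on low counts gave 4 called higher. Over all genes, 561 were called higher and 851 lower, against 727 and 698 with upper-quartile factors and 714 and 707 with total counts.

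Leaving out each replicate pair in turn gave 0 to 2 of the 32 genes called higher (0 without replicate 2, 1 without replicate 3) and 1 called lower in each case. The same fits called 0 to 1 pentose phosphate gene (0 without replicate 1), 0 to 1 tricarboxylic acid cycle gene (0 without replicate 2 or 3), and 2 to 13 of the 32 genes between replicate numbers, 2 being the count without replicate 2. Over all genes, 833 were called without replicate 2. Slc2a3 kept its call in 1 and Pdk2 in 3 of 11 alternatives, Ldha in 7, Pfkl in 8 and Eno2 in 9, while Hk2 was called in 4 and Pgk1 in 3.

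Signs turned for 8 of the 32 genes, none of them called. Hk1 gave 0.017 with upper-quartile factors, 0.018 with total counts and 0.00048 with at least 10 counts in every library, and Tpi1 gave 0.0019 with upper-quartile factors and 0.0021 with total counts. With each replicate pair left out in turn, the log2 fold change ran from -0.050 to 0.16 for Slc2a1, from -0.079 to 0.027 for Hk1, from -0.011 to 0.034 for Gpi1, from -0.11 to 0.13 for Pfkfb4, from -0.055 to 0.0078 for Tpi1, from -0.039 to 0.15 for Bnip3, from -0.11 to 0.14 for Egln1 and from -0.0070 to 0.10 for Egln3. Over the 32 genes and 11 alternatives, 301 values kept direction and call, 27 lost a call, 7 gained one and 15 turned, and Pdk4 had no value with at least 10 counts in every library or without replicate 3, where it did not pass the filter. The cause of these differences was not tested. The ratios and the summed level use no block. Among the 32, SEs ran from 0.068 to 0.50, so changes of rare genes such as Pdk4 and Car9 were not detectable at this depth unless large.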

Other observations

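Neighbouring pathways were read from lists of the same kind. Of 8 pentose phosphate genes, 1 rose (12.5%, beside 3.35% of all genes tested) and 0 were called lower. Calls in either direction were 8.44% of all genes tested. The median log2 fold change was 0.11, with 8 of 8 above 0. The gene called was Tkt, the transketolase, at 131, 113 and 131 CPM in DMSO replicates 1, 2 and 3. With GSK-126 it lay between 148 and 172 CPM, without overlap between the groups (log2 fold change 0.33 ± 0.078 SE, edgeR adjusted p = 0.0104). This call was lost without replicate 1.

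Of 16 tricarboxylic acid cycle genes, 2 fell (12.5%, beside 5.09%) and 0 were called higher by edgeR, with a median log2 fold change of 0.0011. With both directions counted, 8.44% of all genes tested were called. The 2 that fell encode subunits of the NAD-dependent isocitrate dehydrogenase of mitochondria. Idh3a was at 118, 182 and 134 CPM with DMSO and at 103, 134 and 119 CPM with GSK-126 (log2 fold change -0.27 ± 0.080 SE, edgeR adjusted p = 0.0403). Idh3g was at 88.9, 108 and 89.7 CPM with DMSO and at 79.3, 78.8 and 66.5 CPM with GSK-126, without overlap (log2 fold change -0.35 ± 0.088 SE, edgeR adjusted p = 0.0158). Idh3a lost its call whichever pair was left out, and Idh3g lost its call without replicate 2 or 3. The edgeR adjusted p for Idh3a was 0.108, 0.231 and 0.0519 without replicate 1, 2 and 3. For Idh3g it was 0.0162, 0.106 and 0.0871. DESeq2 with the block called 1 of the 16 genes. Both were lower in 3 of 3 pairs, as the granule neuron markers were, and the part of cell composition in these values was not tested.

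Among the other hypoxia genes called higher were also P4ha2, Stc2 and Epas1. P4ha2, a collagen prolyl hydroxylase, changed by 0.59 ± 0.12 SE and Stc2, a secreted glycoprotein, by 0.83 ± 0.20 SE on the log2 scale, both without overlap between groups. The call of Stc2 was lost without replicate 1 (edgeR adjusted p = 0.0588) or replicate 2 (0.0903). Epas1, which encodes HIF-2α, changed by 0.51 ± 0.11 SE and was lowest in replicate 2 of both groups. These were named after their values were seen.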
